A study of Rattus norvegicus with 11 samples.

Results

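The genes described here encode the nuclear subunits of respiratory chain complexes II, III and IV, the mobile carrier cytochrome c, and complex V, the ATP synthase. They were taken by gene symbol from a table of 17257 genes, as every row beginning with Uqcr, Atp5 or Cox followed by a digit from 4 to 8, together with Sdha, Sdhb, Sdhc, Sdhd, Cyc1 and Cycs. The rule found 47 rows, of which 45 had a mean above 0, and Cox8c, a testis form, and the pseudogene row Cox6c-ps1 were listed at 0. Of the 45, 42 encode a structural subunit or cytochrome c. The other 3 were not counted as subunits here. These are Cox7a2l, a factor that joins complexes III and IV, and Atp5s and Atp5sl, which RefSeq now calls Dmac2l and Dmac2.

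The cells were ventricular myocytes of wild-type Sprague Dawley rats aged 3 to 4 months, from 5 females and 6 males. The heart was digested by perfusion on a Langendorff apparatus, and the myocytes were plated for 45 minutes, left untreated and frozen. RNA depleted of ribosomal RNA was sequenced, and the comparison of females with males asked how gene expression in the myocyte differs with sex. The authors deposited a mean normalized count per sex, a fold change and a p-value, so that the spread between animals enters only through the authors' test, and means are given without an SD. In tissue or cell preparations of this kind, fewer cells of a type and less RNA per cell cannot be told apart.

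The respiratory chain passes electrons from nutrients to oxygen and pumps protons across the inner mitochondrial membrane. Complex II takes electrons from succinate, complex III passes them to cytochrome c, complex IV hands them from cytochrome c to oxygen, and complex V uses the returning protons to make ATP. The heart depends on this route for nearly all of its ATP. Some complex IV subunits exist in a heart form, found in heart and skeletal muscle, and a liver form, found in most tissues, each from its own gene. The catalytic core of complex IV, a subunit of complex III and parts of complex V are encoded in mitochondrial DNA and were not analysed here.

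Most of the genes were among the most highly counted in these cells. Of the 45 measured, 42 had a mean of at least 1000 normalized counts, 34 were among the 500 genes of highest mean and 13 among the top 100. Together they held 5.08% of the summed female means and 5.26% of the summed male means over rows with a gene symbol. Over all rows the shares were 2.50% in females and 2.24% in males, because rows without a symbol held 50.7% of the summed means in females and 57.5% in males. The order of the sexes thus depended on the denominator. Means are normalized counts not divided by transcript length, so they order the sexes for a gene and not the genes among themselves.

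**Figure D1:**
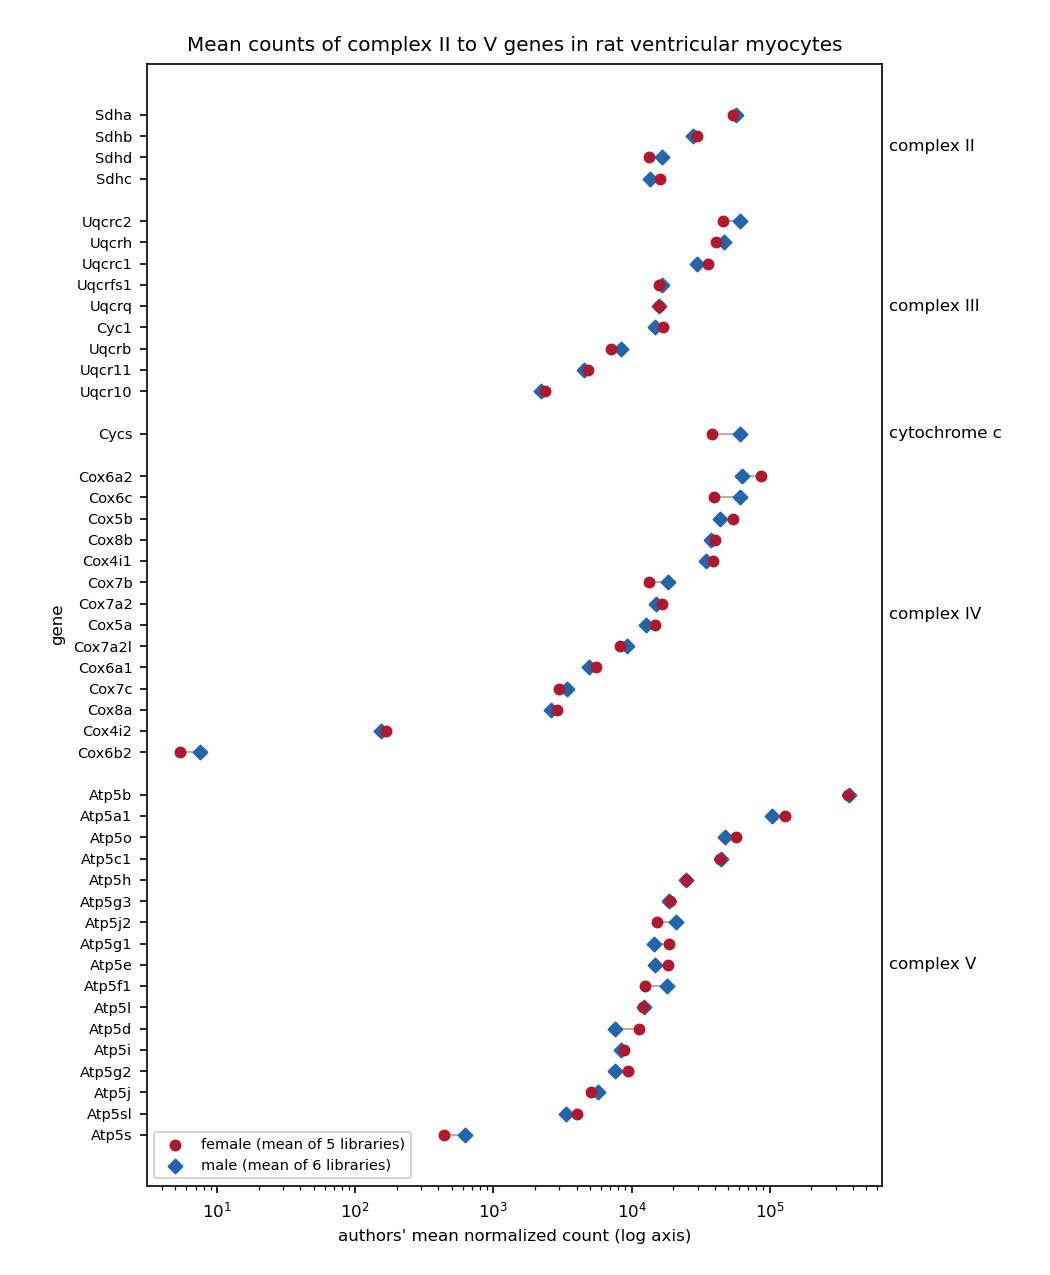
Authors' mean normalized count (log axis) of each measured gene in the 5 female libraries (circles) and the 6 male libraries (diamonds), by complex. The symbols of a gene lie close together throughout, and only Cox4i2, Cox6b2 and Atp5s have means under 1000.

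The sexes differed by small folds, in both directions, and in few of these genes. With an adjusted p under 0.05 taken from the authors' deposited table, 2 of the 45 were higher in females, Cox6a2 and Atp5d, against 6.71% of all 13346 genes with a mean above 0. On the same threshold, 4 were lower in females, Cycs, Cox6c, Uqcrc2 and Atp5j2, against 7.76% of all genes. The 6 calls were 13.3% of the 45 genes, beside 14.5% of all genes called in either direction. These shares are near the background. Among genes with a mean of at least 1000, a limit chosen after the values were seen, 14.3% of 42 members were called, beside 27.1% of 3573 genes. An unadjusted p under 0.05 was reached by 9 of the 45 members with a higher female mean and 7 with a lower one. Among all 13346 genes the counts were 1699 and 1949, that is 12.7% and 14.6%, and 27.3% in either direction. At this threshold the members' shares lay above those of all genes, more so for a higher female mean. Among genes with a mean of at least 1000, the counts were 9 and 7 of 42 members, beside 734 and 896 of 3573 genes. There the members' share with a higher female mean was near that of all genes, and the share with a lower one was below it. None of these differences was tested.

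As a group the members were centred near 0. The median log2 fold change (female over male) of the 44 members with a mean of at least 10 was 0.07, beside -0.0037 for all genes with such a mean, and 26 members lay above 0 and 18 below. The quartiles of the log2 fold change were -0.18 and 0.23 in these 44 members and -0.32 and 0.29 in all 10518 genes whose mean was at least 10, with an SD across genes of 0.30 and 0.52. Among genes whose mean was at least 1000, the SD was 0.29 in the 42 members and 0.49 in all 3573 genes. The quartiles there were -0.17 and 0.24 in the members and -0.30 and 0.24 in all genes. The SD of all genes includes a lowest value of -13.5, so the quartiles differ less than the SDs. The extremes among the members were Cycs at -0.67 and Atp5d at 0.57 per the authors' deposited table.

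**Figure D2:**
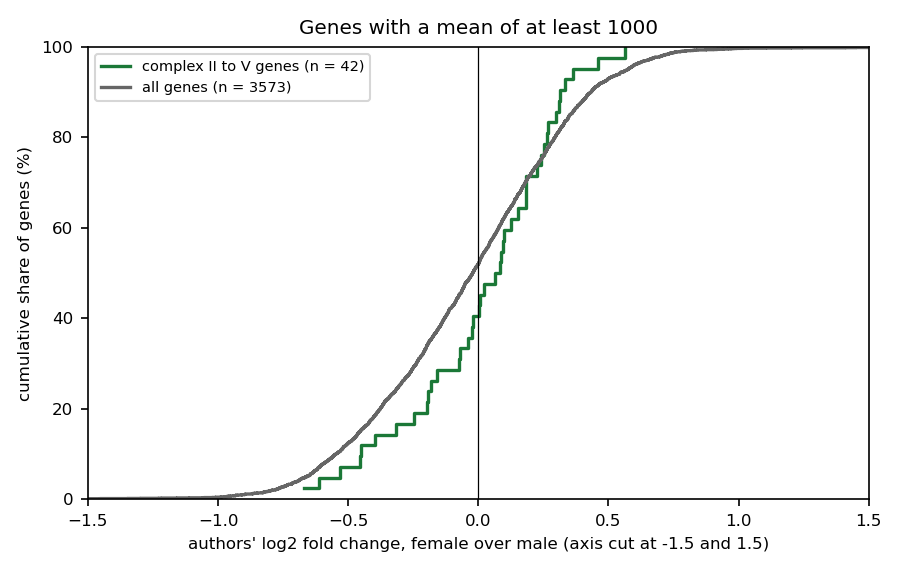
Cumulative share of genes (vertical axis, %) by the authors' log2 fold change, female over male (horizontal axis), for the 42 members and for all 3573 genes with a mean of at least 1000. The members' curve is steeper, with an SD of 0.29 against 0.49, and the medians are 0.07 and -0.02. The quartiles are -0.17 and 0.24 in the members and -0.30 and 0.24 in all genes.

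Complex II, succinate dehydrogenase, belongs to the citric acid cycle as well as to the chain, and no subunit of it was called. Sdha, the flavoprotein that oxidizes succinate, had an authors' mean of 54091 in females and 56926 in males. Sdhb, the iron-sulphur subunit, had 29554 in females and 27691 in males. These catalytic subunits differed by log2 fold changes of -0.07 and 0.09 per the authors' deposited table, with adjusted p-values of 0.811 and 0.708. The membrane anchors lay on opposite sides. Sdhc had an authors' mean of 16182 in females and 13685 in males, and Sdhd one of 13351 in females and 16627 in males. Per the authors' deposited table they differed by 0.24 and -0.32 on the log2 scale, at adjusted p-values of 0.202 and 0.0988. The means of the 4 subunits summed to 113179 in females and 114928 in males, a log2 ratio of -0.02.

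In complex III, 1 of 9 subunit genes was called. Uqcrc2, a core protein of the matrix side, fell to an authors' mean of 46207 in females, against 60822 in males. That is a log2 fold change of -0.40 at an adjusted p of 0.0256 per the authors' deposited table. Its partner core protein Uqcrc1 had authors' means of 35849 in females and 29794 in males, in the opposite direction, with a log2 fold change of 0.27 at an adjusted p of 0.165 per the authors' deposited table. The difference between these partners was not tested. Of the redox subunits, Cyc1, which carries the haem that reduces cytochrome c, had a log2 fold change of 0.18, and Uqcrfs1, the Rieske iron-sulphur protein, one of -0.07 per the authors' deposited table. The small subunits Uqcrh, Uqcrb, Uqcrq, Uqcr10 and Uqcr11 had log2 fold changes from -0.25 to 0.09 and none was called. Uqcrh, the hinge protein and the second most highly counted subunit gene of the complex, had authors' means of 40969 in females and 46830 in males at an adjusted p of 0.388 per the authors' deposited table. The summed means of the complex were 185925 in females and 199960 in males. Their log2 ratio of -0.10 was 0.0060 without Uqcrc2, so that sum rested on the called gene.

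Cytochrome c, the small haem protein that shuttles electrons from complex III to complex IV, had the largest change of all members. Cycs fell to an authors' mean of 37964 in females, against 60458 in males. Its fold of 0.628, a log2 fold change of -0.67, had an adjusted p of 0.0031 per the authors' deposited table. Hccs, which attaches haem to cytochrome c, was also lower, with authors' means of 2142 in females and 2973 in males, a log2 fold change of -0.47 at an adjusted p of 0.0161 per the authors' deposited table.

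Nuclear subunits of complex IV, cytochrome c oxidase, surround the catalytic core and are thought to adjust its stability and activity. Of 13 measured subunit genes that the symbol rule takes, 1 rose and 1 fell. Cox6a2, the heart form of subunit VIa, rose to an authors' mean of 86126 in females, against 62551 in males. This was a fold of 1.38 at an adjusted p of 0.0073 per the authors' deposited table. Cox6c, a subunit that lies in the membrane, fell to 39579 in females, against 60540 in males. Its fold was 0.654 at an adjusted p of 0.0072 per the authors' deposited table. Cox7b, an X-linked subunit gene, was the nearest outside the threshold, with authors' means of 13473 in females and 18405 in males at an adjusted p of 0.0501 per the authors' deposited table. When p-values were adjusted over genes with a mean of at least 10 alone, that of Cox7b was 0.0397.

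Outside the paired forms, Cox4i1, Cox5a and Cox5b had log2 fold changes of 0.18, 0.23 and 0.30 and Cox7c one of -0.20 per the authors' deposited table, and none was called. Of the 12 subunit genes of complex IV with a mean of at least 10, 9 lay above 0, and Cox6c, Cox7b and Cox7c lay below. The summed means of complex IV were 315467 in females and 296039 in males, a log2 ratio of 0.09 that was -0.03 without Cox6a2. The symbol rule found no row named Cox6b1 or Cox7a1, further forms of subunits VIb and VIIa, so the sum does not hold them. Cox7a2l, the supercomplex factor, had authors' means of 8242 in females and 9194 in males, at an adjusted p of 0.496 per the authors' deposited table.

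**Figure D3:**
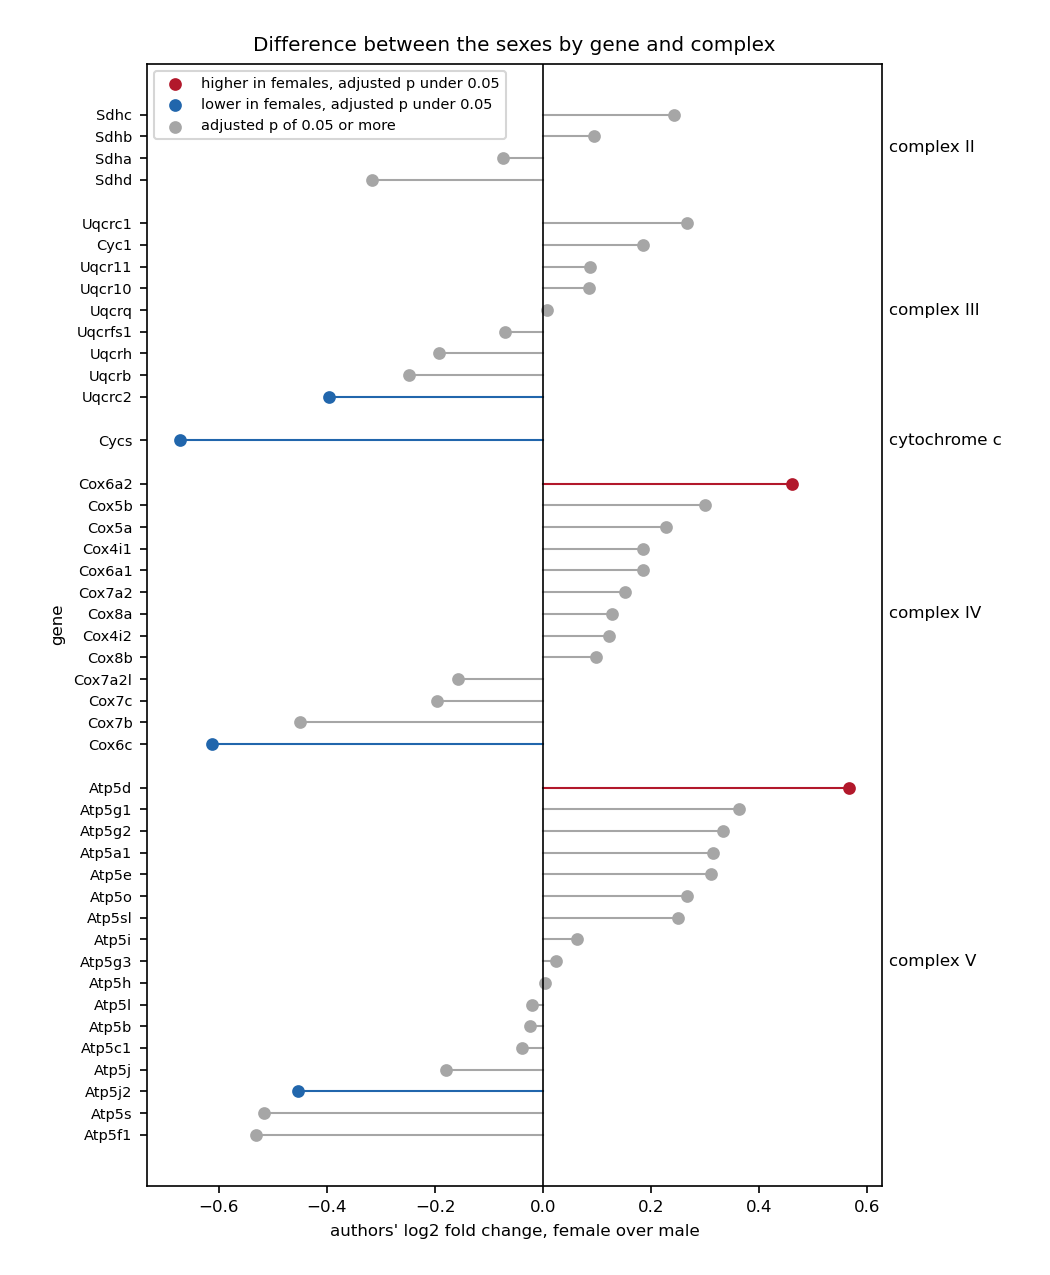
Authors' log2 fold change, female over male, of the 44 members with a mean of at least 10, ordered within each complex. Red and blue mark the 2 genes higher and 4 lower in females at an adjusted p under 0.05, and each of complexes II to V has genes on both sides of 0.

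The 250 bases before the RefSeq start (assembly GRCr8, minus strand, 5′ to 3′) are given for the heart forms Cox6a2 and Cox8b and for the liver form Cox8a, which sets both forms of subunit VIII side by side. Capitals mark matches to motifs searched on both strands. In Cox6a2 these are an E-box (CAGCTG) and a MEF2 motif (CTA and TAG with any 4 bases between), which muscle regulatory factors and MEF2 proteins are known to bind. In Cox8b they are E-boxes and a TATA box (TATAAA). In Cox8a they are a cyclic AMP response element (TGACGTCA) and matches to the motif of GABP (CCGGAAG, here on the opposite strand), an ETS factor known to act on respiratory genes.
Cox6a2, chr1:192219717-192219966: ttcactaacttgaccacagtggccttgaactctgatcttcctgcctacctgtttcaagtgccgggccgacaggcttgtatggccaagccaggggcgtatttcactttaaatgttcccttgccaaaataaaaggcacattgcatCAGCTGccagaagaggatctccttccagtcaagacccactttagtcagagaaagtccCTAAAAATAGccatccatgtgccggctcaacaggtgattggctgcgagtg
Cox8b, chr1:205408274-205408523: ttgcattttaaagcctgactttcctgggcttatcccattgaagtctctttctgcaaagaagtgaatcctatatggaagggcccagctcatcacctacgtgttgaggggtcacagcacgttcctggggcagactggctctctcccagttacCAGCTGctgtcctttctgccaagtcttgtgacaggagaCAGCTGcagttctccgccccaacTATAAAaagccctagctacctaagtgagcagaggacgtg
Cox8a, chr1:213833624-213833873: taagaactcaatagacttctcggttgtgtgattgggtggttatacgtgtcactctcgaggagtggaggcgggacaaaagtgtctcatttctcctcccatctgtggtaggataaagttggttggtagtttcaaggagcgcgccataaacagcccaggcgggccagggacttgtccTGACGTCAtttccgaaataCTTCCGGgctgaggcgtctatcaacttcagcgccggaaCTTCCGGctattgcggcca

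The heart form was counted many times more often than the liver form in both sexes. Cox6a1, the liver form of subunit VIa, had authors' means of 5541 in females and 4877 in males, so that the ratio of Cox6a2 to Cox6a1 counts, not divided by length, was 15.5 in females and 12.8 in males. The ratio in females was 1.21 times that in males, a difference of 0.28 on the log2 scale that could not be tested from group means. For subunit VIII the heart form Cox8b had authors' means of 40131 in females and 37503 in males, and the liver form Cox8a had 2863 in females and 2622 in males. The ratio of counts was 14.02 in females and 14.3 in males, a difference of -0.03 on the log2 scale. Heart forms of both pairs, like the liver forms, had higher means in females, but only Cox6a2 was called, and Cox8b, Cox6a1 and Cox8a had adjusted p-values of 0.676, 0.408 and 0.609 per the authors' deposited table. Cox7a2, the liver form of subunit VIIa, had authors' means of 16637 in females and 14976 in males at an adjusted p of 0.505 per the authors' deposited table. The symbol rule found no row for its heart form, Cox7a1.

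**Figure D4:**
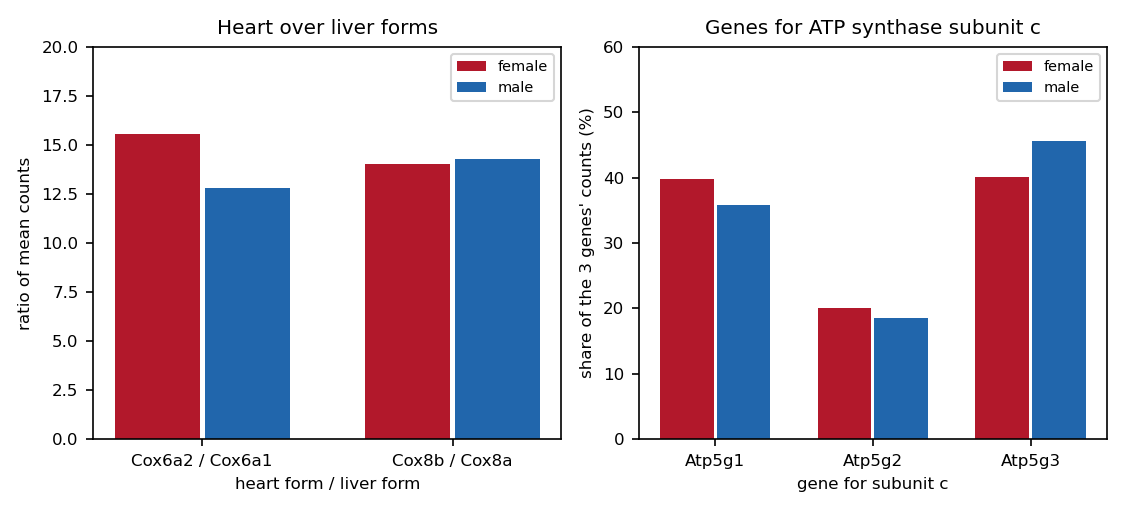
Left, ratio of the authors' mean counts of heart over liver forms in females and males, 15.5 against 12.8 for subunit VIa and 14.02 against 14.3 for subunit VIII. Right, share (%) of each gene in the counts of the genes for subunit c, with Atp5g3 at 40.1% in females and 45.7% in males.

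Forms of other tissues were scarce. Cox4i2, the lung form of subunit IV that is known to be induced by low oxygen, had authors' means of 168 in females and 155 in males, at an adjusted p of 0.839 per the authors' deposited table. Its common partner Cox4i1 had 39014 in females and 34327 in males. Cox6b2, the testis form of subunit VIb, was the only member low enough for its reads to be recovered in every library from the digits of the means. The 5 female libraries held 0, 0, 5.29, 5.43 and 16.5 normalized reads. The 6 male libraries held 1.23, 3.81, 6.82, 9.76, 10.3 and 13.6 normalized reads. The groups overlapped over almost their whole range, and the highest library was a female one. The mean was 5.43 ± 6.72 in females (SD, n = 5) and 7.59 ± 4.55 in males (SD, n = 6), with an exact permutation p = 0.558 (two-sided). The counts behind these values were 28 reads in females and 46 in males, and the libraries of each sex differed widely.

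The ATP synthase had the most highly counted member. Of the 15 subunit genes that the symbol rule takes, 1 rose and 1 fell. Its catalytic head is built of alpha and beta subunits. Atp5b, the beta subunit that forms ATP, had authors' means of 365665 in females and 371648 in males, at an adjusted p of 0.955 per the authors' deposited table. Atp5a1, the alpha subunit, had 128897 in females and 103683 in males, a log2 fold change of 0.31 at an adjusted p of 0.0961 per the authors' deposited table. In the central stalk, Atp5d, the delta subunit, rose to 11310 in females, against 7642 in males. Its fold was 1.48 at an adjusted p of 0.0194 per the authors' deposited table. The gamma subunit Atp5c1 and the epsilon subunit Atp5e had log2 fold changes of -0.04 and 0.31, with adjusted p-values of 0.946 and 0.0800 per the authors' deposited table.

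The peripheral stalk holds the head still against the rotor, and none of its 4 genes was called. The widest apart were Atp5f1, subunit b, with authors' means of 12459 in females and 18007 in males, and Atp5o, which caps the stalk, with 57216 in females and 47591 in males. Their log2 fold changes were -0.53 and 0.27, at adjusted p-values of 0.0909 and 0.147 per the authors' deposited table. Atp5h and Atp5j, the remaining genes of the stalk, had log2 fold changes of 0.0043 and -0.18 per the authors' deposited table. In the membrane part, Atp5j2, subunit f, fell to an authors' mean of 15360 in females, against 21038 in males. This was a fold of 0.730 at an adjusted p of 0.0140 per the authors' deposited table. The neighbouring small subunits Atp5i and Atp5l had log2 fold changes of 0.06 and -0.02 per the authors' deposited table. Usmg5, another small membrane subunit of the ATP synthase that the symbol rule does not take, was lower too. Its authors' means were 24586 in females and 38783 in males, with a log2 fold change of -0.66 at an adjusted p of 0.0045 per the authors' deposited table.

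Subunit c forms the ring that turns as protons pass, and Atp5g1, Atp5g2 and Atp5g3 encode the same mature protein with different import sequences. Atp5g1 had authors' means of 18789 in females and 14617 in males. Atp5g2 had 9479 in females and 7530 in males, and Atp5g3 had 18928 in females and 18621 in males. The log2 fold changes of Atp5g1 and Atp5g2 were 0.36 and 0.33, at adjusted p-values of 0.0764 and 0.0694 per the authors' deposited table, and these genes were, after Cox7b, the nearest outside the threshold. That of Atp5g3 was 0.02, and it turned to -0.04 when each sex was scaled to its summed means over rows with a symbol. The counts of the 3 genes summed to 47196 in females and 40768 in males. Within that sum Atp5g1 made up 39.8% in females and 35.9% in males, Atp5g2 20.1% in females and 18.5% in males, and Atp5g3 40.1% in females and 45.7% in males. The 15 genes of the complex under the symbol rule, without Usmg5, had summed means of 750506 in females and 720775 in males. Their log2 ratio of 0.06 became -0.0041 under the same scaling.

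Several members have processed copies in the rat genome whose reads may not be separable from their own. The RefSeq table lists at least 1 pseudogene named after 24 of the 45 measured members, among them Cycs with 7, Cox6c with 3 and Atp5j2 with 3. All 3 calls among these 24 were lower in females. Of the 21 members without one, Cox6a2 and Atp5d were higher and Uqcrc2 was lower. The median log2 fold change was -0.0078 in the 24 and 0.09 in the 21. The sources used here do not say how reads with several matches were counted, so the values of Cycs, Cox6c and Atp5j2 are uncertain to that extent, and the part of such copies in the differences was not tested.

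A count of motifs over the upstream 250 bases described what the promoters share. Of the 42 measured subunit genes, 35 had a promoter in the RefSeq table. The GABP motif CCGGAAG was present in 12 of them, 34.3%, against 7.74% of all 27457 promoters in the table and 13.6% of the 10544 promoters of measured genes. The motif of NRF1, another known regulator of respiratory genes (GCGCA and GCGC with any 1 base between), was present in 5, 14.3%, against 4.17% of all promoters and 8.13% of those of measured genes. Of the 5 called members with a promoter in the table, Uqcrc2 alone had a GABP match and 0 had an NRF1 match. The median log2 fold change was 0.03 in the 12 genes with a GABP match and 0.09 in the 23 without, and it was 0.27 in the 5 genes with an NRF1 match and 0.02 in the 30 without. A match is a run of letters and not a measured site. The remaining motifs were found in 1 to 5 of the 35, namely YY1 (AAGATGGCG, 1), the cyclic AMP response element (1), MEF2 (2), the TATA box (3) and the E-box (5). The E-box was present in 14.3% of members against 12.9% of promoters of measured genes, and the TATA box in 8.57% against 7.52%. The shares were 2.86% against 2.70% for the cyclic AMP response element, 5.71% against 2.76% for MEF2 and 2.86% against 1.14% for YY1. The GC content of these promoters had a median of 56.0% in the 34 with a mean of at least 10, beside 60.4% over 8536 genes with such a mean.

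The genes that build the complexes were called at a share near the background. Of 28 measured assembly and inhibitor genes for complexes II to V, 2 rose and 3 fell, 17.9% beside 14.5% of all genes, and the median log2 fold change was -0.15. Uqcc2, needed for complex III assembly, rose to an authors' mean of 1752 in females, against 1267 in males, at an adjusted p of 0.0222 per the authors' deposited table. Fmc1, an assembly factor of the ATP synthase, rose 1.54-fold at an adjusted p of 0.0057 per the authors' deposited table. Cox11, which delivers copper to complex IV, and Coa5, an assembly factor of that complex, fell by 0.64 and 0.63 on the log2 scale per the authors' deposited table. Tmem70, which helps to assemble the ATP synthase, fell by 0.40 at an adjusted p of 0.0422 per the authors' deposited table. Surf1 was listed at 0. Of 4 measured genes for cytochrome c synthesis and for carriers of ATP, ADP and phosphate, only Hccs was called. The abundant adenine nucleotide carrier gene Slc25a4 had authors' means of 218544 in females and 231226 in males, at an adjusted p of 0.781 per the authors' deposited table. Ndufa4 and Higd2a were listed beside Usmg5 as further genes outside the symbol rule, and neither was called. The counts and sums by complex do not hold them. Ndufa4 had authors' means of 20091 in females and 21481 in males.

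Of the 14 listed regulators of respiratory genes, 4 rose and 3 fell, 50% of the list beside 14.5% of all genes called. Among genes with a mean of at least 1000 the share called was 27.1%. The list was chosen with earlier results of these data known, and its share was not tested. Ppargc1b, the coactivator PGC-1beta, had authors' means of 1512 in females and 1037 in males, a fold of 1.46 at an adjusted p of 0.0107 per the authors' deposited table. Esrrb, an estrogen-related receptor, rose 1.57-fold, Polrmt, the RNA polymerase of mitochondria, 1.48-fold and Pprc1, a relative of PGC-1, 1.39-fold per the authors' deposited table. Gabpa, the DNA-binding subunit of GABP, had authors' means of 1016 in females and 1739 in males, a fold of 0.584 at an adjusted p of 0.0050 per the authors' deposited table. Tfb2m, which starts transcription of mitochondrial DNA together with Polrmt, fell by 0.55 on the log2 scale, and Tfam, which packages that DNA, by 0.42 per the authors' deposited table. The machinery for mitochondrial transcription was thus called in opposite directions, with Polrmt higher and Tfam and Tfb2m lower in females. Ppargc1a, Esrra, Esrrg and Nrf1 were not called, with adjusted p-values of 0.206, 0.158, 0.928 and 0.940 per the authors' deposited table. Tfam was named in addition to the rule, after its value was seen.

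**Figure D5:**
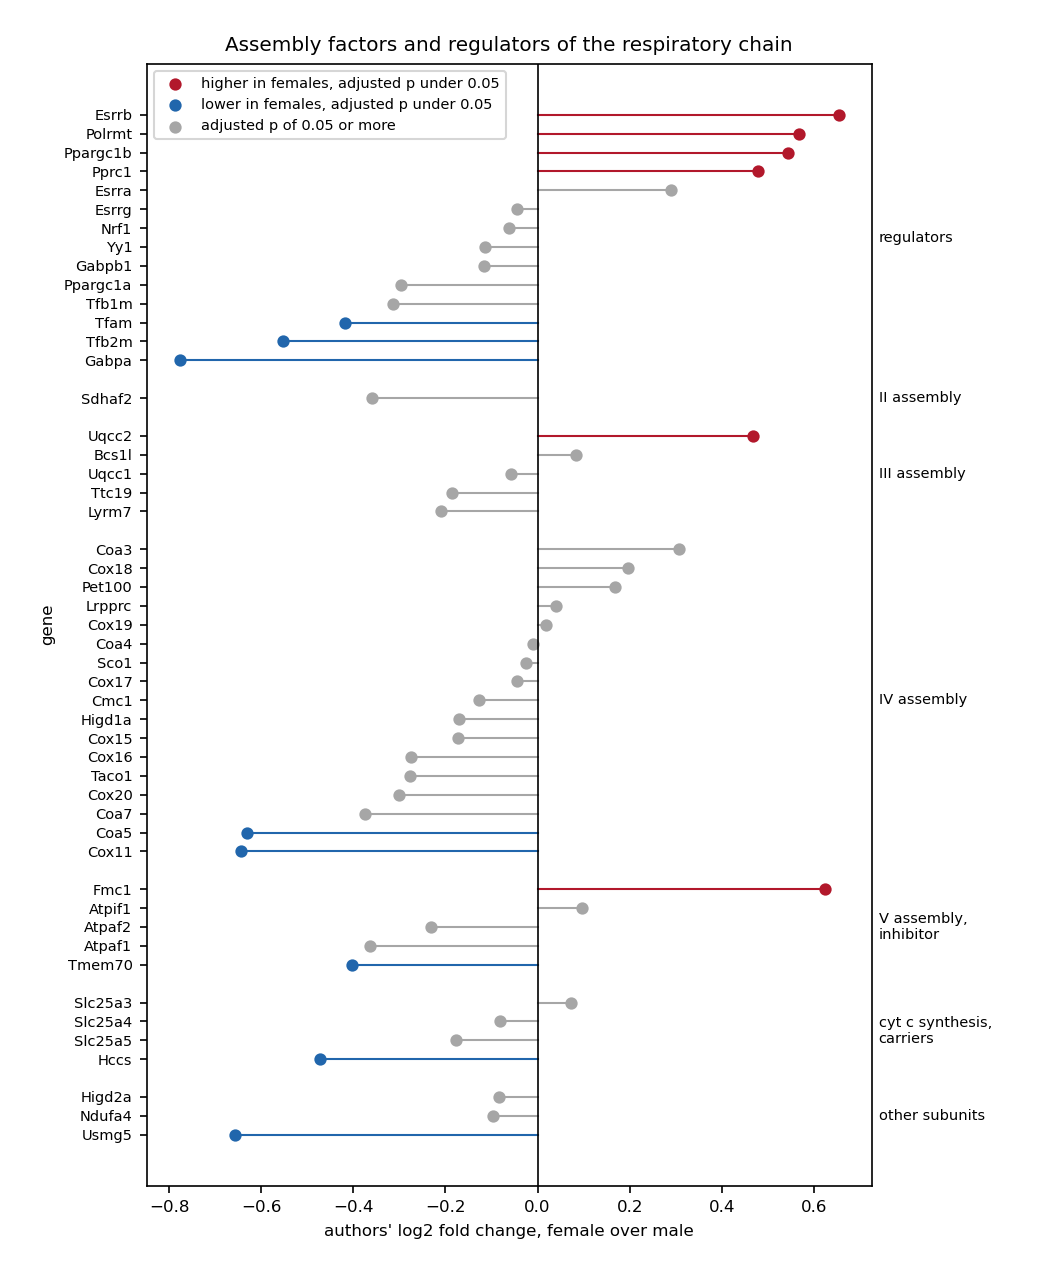
Authors' log2 fold change, female over male, of measured regulators, assembly factors, carriers and further genes, by list. Red and blue mark genes with an adjusted p under 0.05. Among the regulators 4 called genes lie to the right and 3 to the left, with Gabpa at -0.78 the lowest.

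The preparation carried the markers of its labelled cell type. The 7 myocyte markers, Myh6, Tnnt2, Tnni3, Actc1, Ryr2, Pln and Mb, were all measured, and their summed means were 1.20 times as high in females as in males, and 1.06 times without Myh6. Of them Myh6 and Ryr2 were called higher, while Tnnt2 and Pln had log2 fold changes of -0.03 and -0.20 per the authors' deposited table and were not called. Of 7 fibroblast markers, 6 were measured and Col1a2 was listed at 0, with Col3a1, Col1a1 and Postn called lower. Pdgfra, Dcn and Tcf21 were not called, with log2 fold changes of -0.34, -0.52 and 0.17 per the authors' deposited table. The summed means of the list were 8576 in females and 17549 in males. Most of that difference came from Col3a1, with authors' means of 3915 in females and 10722 in males. Of 6 endothelial markers Vwf alone was called, higher in females, and the sums were 16400 in females and 15668 in males. Summed means were 4258 in females and 4505 in males for 6 smooth muscle and pericyte markers, none of them called. That order came from Rgs5, with authors' means of 1924 in females and 2647 in males. Acta2, Myh11, Tagln, Cnn1 and Pdgfrb had higher means in females. For 5 leukocyte markers, none of them called, the sums were 343 in females and 417 in males. The skeletal muscle markers held Acta1, which heart muscle also expresses, with 12418 in females and 20455 in males, while Myh1, Myh2, Myh4 and Tnnt3 had means under 20 in either sex and Myog was listed at 0. Of the liver markers Alb, Apoa1 and Serpina1 had means under 3, and Ttr had 710 in females and 609 in males, none of them called. The part of the fibroblast and myocyte marker differences in the results for the respiratory genes was not tested.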

How the data were processed

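Libraries were stranded and paired-end, from 650 ng of rRNA-depleted total RNA whose integrity number was at least 9, per the labels' protocols. The submitters' processing notes name FastQC, Trimmomatic 0.32, TopHat2 2.0.12, HTSeq 0.6.1, DESeq and the build rn6. Settings and order, the annotation, the use of strand and the treatment of reads with several matches are not given in the sources used here.

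Per the file headers, the authors deposited for each gene a mean normalized signal (counts divided by size factors) over all libraries and over groups A and B, the fold change as a linear ratio, its log2 value, a p-value and an adjusted p-value. Weighting A by 6 and B by 5 gave the overall mean of each of the 13346 genes above 0 (relative tolerance 1e-09), and the opposite weights gave it for 0 genes. A was thus taken to be the males and B the females, with every fold change female over male. Benjamini-Hochberg adjustment over the 13346 genes returned the deposited adjusted p within 3.3e-15. It was used as deposited, at a threshold of 0.05, with no set test.

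A group mean adds whole reads divided by size factors, so its digits were solved for the reads of single libraries, up to a mean of 100 in females and 30 in males, to a relative 1.5e-14. A unique solution existed for 4487 of 4487 female and 3242 of 3242 male means, and 0 of 300 shifted values had one in either sex. On simulated data 100% of 286 female and 294 male genes gave back their reads. Size factors ran from 0.972 to 1.14 in females and from 0.811 to 1.17 in males. Libraries are known by sex and size factor alone and are numbered in order of falling size factor. The planned limma fit over 899 recovered genes with a mean of at least 10 held 0 members. The fit over 3726 recovered genes (limma 3.58.1, R 4.3.3, log2 scale, pseudocount 1) held Cox6b2, which is described by an exact permutation test (SciPy 1.17.1). No length was available, so the planned levels per coding length were not made.

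Symbols were matched to the RefSeq table of assembly GRCr8, by current or older symbol, for all 47 rows. The members, lists and tests were chosen with earlier results of these data known. Genes named were the called members, the paired forms, the 2 highest means of each complex, those nearest the threshold, complex II, and up to 6 called genes per list. The labels call the libraries biological replicates. Other settings tried were thresholds, low-value filters, scalings, the choice of rows, pseudocounts and leaving out libraries.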

Additional observations from a re-analysis of the deposited data

How the results depend on the processing

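No paired analysis was possible because the deposited columns are group means and carry no replicate numbers, so no fit with a replicate block was made. For the same reason the authors' test could not be repeated without a library, with another normalization or by another tool. At an adjusted p under 0.01, 1 member was higher and 2 were lower in females, and under 0.1, 6 were higher and 7 lower. With p-values adjusted over genes with a mean of at least 10 or 50, 5 members were lower, Cox7b being added, and over the latter 3 were higher, Atp5g2 being added with an adjusted p of 0.0493. Without members that have a pseudogene named after them, a setting chosen after seeing the data, 1 member was lower and 2 were higher. The summed log2 ratio of complex II was 0.027 without Sdha and 0.010 as the median of its members, and that of complex III was 0.0060 without Uqcrc2 and 0.0067 as the median. That of complex IV was -0.026 without Cox6a2 and 0.14 as the median of its members. That of complex V was 0.14 without Atp5b and 0.024 as the median of its members. It became -0.0041 when each sex was scaled to its summed means over rows with a symbol. That scaling moved every log2 fold change by -0.062 and turned Atp5g3 to -0.039, and subtracting the median of genes with a mean of at least 50 moved each by 0.0028. Isoform ratios do not depend on scaling. For Cox6b2 the log2 difference (female minus male) was -0.97 by limma over the recovered genes, with an adjusted p of 0.833. An exact permutation test of the log2 difference gave p = 0.255. The difference ranged from -1.53 to -0.50 leaving out each library in turn, with no limma adjusted p under 0.706. The precision of the remaining members cannot be read from group means.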
